A study of Mus musculus with 6 samples.

Results

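The spiral ganglion neuron genes described here are 10 genes that are widely used to identify the neurons that connect the inner ear to the brain: *Pou4f1*, *Nefh*, *Nefl*, *Nefm*, *Prph*, *Tubb3*, *Snap25*, *Syt2*, *Uchl1* and *Scn1a*. They were chosen by symbol, and the values of all transcripts listed under each symbol were summed in each of 6 cochlear RNA-seq samples. They are 10 of the 51802 gene symbols listed, and all 10 were among the 17136 genes with enough counts to be tested. The samples were bulk RNA from cochleae of mice on the C57/BL6J strain background at 2 months of age, 3 from wildtype and 3 from *Pou4f3(Δ/+)* mice. By their labels the samples are wildtype replicates 3, 4 and 5 and mutant replicates 1, 2 and 3, and values are given in that order. *Pou4f3* encodes a transcription factor of hair cells, and the Δ allele is a knock-in that copies a human deafness mutation (a small deletion with a new stop codon near the end of exon 2), built with a loxP-Neo-loxP cassette. *Pou4f3(Δ/+)* mice are heterozygous, so 1 normal allele remains. The RNA came from the cochlea as a whole and not from isolated neurons, and whether a sample was 1 animal or a pool is not given in the sources used here. The p-values below therefore measure the spread between these samples, which may be technical in part.

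Spiral ganglion neurons receive glutamate released by hair cells and send action potentials along myelinated axons to the cochlear nucleus. Most of them contact inner hair cells (type I neurons), and a small class contacts outer hair cells (type II neurons). Their cell bodies lie in the bony core of the cochlea, so a cochlear RNA sample contains RNA of the cell body and the nearby axon. None of the 10 genes is confined to these neurons: efferent axons, hair cells or other cells of the inner ear also express several of them. In bulk samples, fewer cells of a type and less RNA per cell cannot be told apart.

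Depth was similar in the 6 samples, with summed counts between 14295069 and 17696784. *Pou4f3* itself had 68, 72 and 88 counts in the wildtype and 66, 97 and 52 counts in the *Pou4f3(Δ/+)* samples, and since both alleles contribute to its transcript these counts gave no check of the genotype. The mutant samples were not alike. The summed level of 9 B cell markers was 301 and 340 FPKM (a level per transcript length and per sample total) in *Pou4f3(Δ/+)* replicates 1 and 2 and 182 FPKM in replicate 3, against 149 to 175 FPKM in wildtype. The log2 fold changes of the 10 genes, and the medians of the neuronal lists, are therefore also given without *Pou4f3(Δ/+)* replicate 3 and without replicates 1 and 2.

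All 10 genes were detected in every sample, over a wide range of levels. *Snap25*, a protein of the complex that fuses synaptic vesicles with the membrane, was the most abundant, at 248 ± 25.3 FPKM (SD over 6 samples). The neurofilament genes followed, with *Nefh* at 122 ± 15.6, *Nefl* at 105 ± 16.2 and *Nefm* at 102 ± 12.7 FPKM. *Nefl* was above *Nefm* in 3 of the 6 samples, so the order of this pair was not resolved. *Uchl1*, at 35.9 ± 7.11 FPKM, and *Tubb3*, at 33.2 ± 7.96 FPKM, were likewise not separated, with *Uchl1* higher in 3 of 6 samples. Below them stood *Syt2* at 23.2 ± 3.99, *Scn1a* at 4.55 ± 0.740, *Pou4f1* at 2.24 ± 0.327 and *Prph* at 0.517 ± 0.261 FPKM. Every other pair of neighbours in this order kept its order in 6 of 6 samples.

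**Figure D1:**
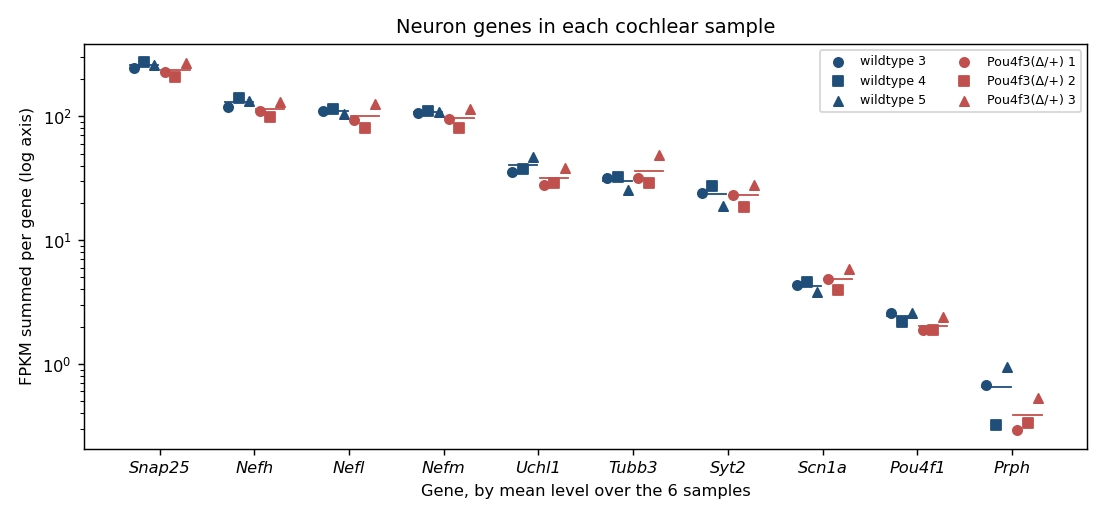
Level of the 10 neuron genes in each sample. Each symbol is 1 sample (wildtype blue, *Pou4f3(Δ/+)* red), the short lines are group means over 3 samples, and the vertical axis is the summed FPKM on a log scale. Levels ran from 248 FPKM for *Snap25* to 0.517 FPKM for *Prph* as means over the 6 samples, and the samples of the 2 genotypes overlapped for all 10 genes.

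Between *Pou4f3(Δ/+)* and wildtype cochleae, none of the 10 genes passed an adjusted p of 0.05. The edgeR quasi-likelihood test called 0 of the 10, and 0% of all genes tested. DESeq2 on the same counts also called 0 of the 10, and 0.373% of all genes. At an unadjusted p under 0.05, edgeR counted 1 of the 10 (*Uchl1*), where 7.64% of all genes met that threshold. The smallest adjusted p among the 10 was 0.643 in edgeR. On the log2 CPM scale (counts scaled to the sample total), the groups overlapped for all 10 genes, whereas 6.59% of all genes had all 3 mutant samples below all 3 wildtype samples and 6.07% had them all above. The log2 fold change was below 0 for 8 of the 10 genes and for 50.6% of all genes, with a median of -0.16 over the 10 and of -0.0027 over all genes tested.

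**Figure D2:**
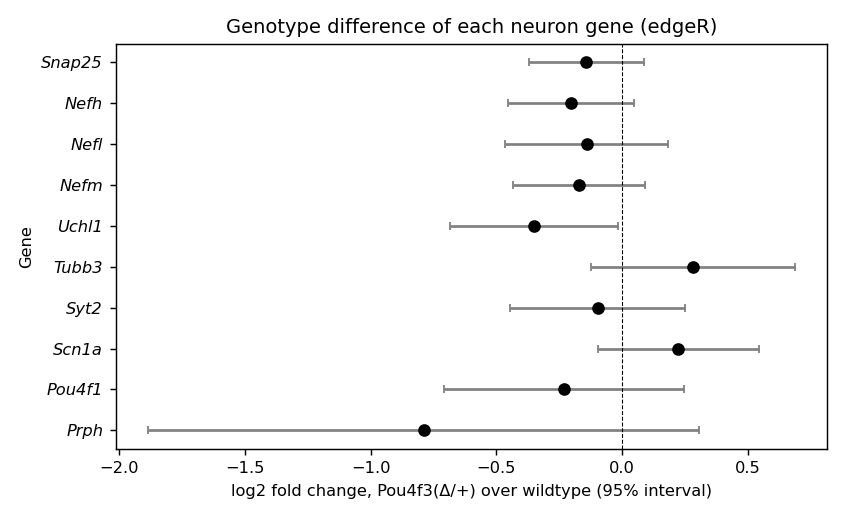
Genotype difference of each neuron gene. Points are edgeR log2 fold changes of *Pou4f3(Δ/+)* over wildtype (horizontal axis, 3 samples per group) and bars are 95% intervals. Of the 10 intervals, 9 span 0, and that of *Uchl1* runs from -0.68 to -0.015.

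The neurofilaments are the main filaments of large myelinated axons. They are built from light (*Nefl*), medium (*Nefm*) and heavy (*Nefh*) subunits, and their amount goes with axon caliber. *Nefl* (ENSMUSG00000022055, chromosome 14 from 68083863 to 68089095, GRCm38) was at 110, 115 and 104 FPKM in wildtype replicates 3, 4 and 5 and at 94.0, 79.8 and 126 FPKM in *Pou4f3(Δ/+)* replicates 1, 2 and 3. *Pou4f3(Δ/+)* replicates 1 and 2 were thus below all wildtype samples, and replicate 3 was above all of them. This gave *Nefl* a log2 fold change of -0.14 (standard error 0.14, edgeR adjusted p = 0.808). *Nefm* (ENSMUSG00000022054), which lies beside *Nefl* on the other strand, had the same arrangement, at 105, 110 and 108 FPKM in wildtype and 94.6, 80.1 and 114 FPKM in *Pou4f3(Δ/+)*. Its log2 fold change was -0.17 (standard error 0.12, edgeR adjusted p = 0.714). *Nefh* (ENSMUSG00000020396, chromosome 11 from 4938754 to 4948064) was at 119, 141 and 132 FPKM in wildtype and 110, 99.5 and 132 FPKM in *Pou4f3(Δ/+)*, so that mutant replicate 3 fell inside the wildtype range. For *Nefh* the log2 fold change was -0.20 (standard error 0.11, edgeR adjusted p = 0.664). The annotation places an exon of a minor *Nefm* transcript across *Nefl* on the opposite strand. That *Nefm* transcript held at most 0.236% of the *Nefm* level in a sample, and whether reads were counted by strand is not given in the sources used here.

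*Prph* encodes peripherin, an intermediate filament that in the adult spiral ganglion marks type II neurons, which are few. It was near the limit of detection: *Prph* (ENSMUSG00000023484, chromosome 15 from 99055174 to 99058978) had 21, 8 and 29 counts in wildtype and 9, 9 and 14 counts in *Pou4f3(Δ/+)*. The groups overlapped through wildtype replicate 4, which had the lowest raw count of all. In CPM that sample (0.555) lay between mutant replicate 1 (0.509), the lowest, and mutant replicate 2 (0.590). The FPKM values were 0.68, 0.32 and 0.95 in wildtype and 0.29, 0.33 and 0.53 in *Pou4f3(Δ/+)*. At -0.79, the log2 fold change was the largest in size of the 10, but its 95% interval ran from -1.89 to 0.31 (edgeR adjusted p = 0.691). Single libraries moved this value: it was -0.41 without wildtype replicate 5 (edgeR unadjusted p = 0.465) and -1.10 without wildtype replicate 4 (edgeR unadjusted p = 0.0420). Chromaffin and sympathetic cells also express *Prph*, and of their markers *Dbh* was listed at 0 in all 6 samples.

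*Tubb3*, the neuronal class of beta tubulin, had the highest positive value of the 10. *Tubb3* (ENSMUSG00000062380, chromosome 8 from 123411424 to 123422015) was at 31.9, 32.2 and 25.5 FPKM in wildtype and 31.7, 29.1 and 48.6 FPKM in *Pou4f3(Δ/+)*. A single sample, *Pou4f3(Δ/+)* replicate 3, lay above the rest. The log2 fold change was 0.28 (standard error 0.18, edgeR adjusted p = 0.697), and without that sample it was 0.042 (edgeR adjusted p = 0.890).

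*Snap25* and *Syt2* act in transmitter release. SNAP-25 is 1 part of the fusion complex, and synaptotagmin-2 is a calcium sensor of fast synapses. *Snap25* (ENSMUSG00000027273, chromosome 2 from 136713453 to 136782428) was at 244, 273 and 261 FPKM in wildtype and 229, 209 and 270 FPKM in *Pou4f3(Δ/+)*, again with mutant replicates 1 and 2 below the wildtype range and replicate 3 inside it. For *Snap25* the log2 fold change was -0.14 (standard error 0.10, edgeR adjusted p = 0.736). *Syt2* (ENSMUSG00000026452, chromosome 1 from 134646677 to 134762593) was at 23.9, 27.5 and 18.9 FPKM in wildtype and 22.9, 18.4 and 27.7 FPKM in *Pou4f3(Δ/+)*. Its values were interleaved between the groups, with a log2 fold change of -0.097 (standard error 0.15, edgeR adjusted p = 0.883).

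*Uchl1* encodes an abundant neuronal ubiquitin hydrolase and was the member with the smallest p. *Uchl1* (ENSMUSG00000029223, chromosome 5 from 66676091 to 66687234) was at 35.5, 37.7 and 47.1 FPKM in wildtype and 27.8, 28.7 and 38.4 FPKM in *Pou4f3(Δ/+)*. Mutant replicates 1 and 2 were below every wildtype sample, and replicate 3 was above 2 of them. The log2 fold change was -0.35 (standard error 0.15, 95% interval -0.68 to -0.015), with an unadjusted p of 0.0423 and an adjusted p of 0.643 in edgeR. DESeq2 gave it an adjusted p of 0.678. Without wildtype replicate 5, the highest sample, the edgeR log2 fold change was -0.22 (edgeR unadjusted p = 0.171). It was -0.26 without mutant replicate 1 (edgeR unadjusted p = 0.147) and -0.30 without mutant replicate 2 (edgeR unadjusted p = 0.113).

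*Pou4f1* is the sister gene of *Pou4f3* and encodes the sensory neuron transcription factor Brn3a, which in the adult ganglion is kept in some type I neurons. *Pou4f1* (ENSMUSG00000048349, chromosome 14 from 104461676 to 104467999) had 98, 80 and 101 counts in wildtype and 94, 56 and 84 counts in *Pou4f3(Δ/+)*, which is 2.58, 2.17 and 2.59 against 1.87, 1.87 and 2.37 FPKM. The CPM values overlapped between the groups. Its log2 fold change was -0.23 (standard error 0.21, 95% interval -0.71 to 0.25, edgeR adjusted p = 0.786). *Scn1a*, the pore-forming subunit of a voltage-gated sodium channel, was 1 of the 2 members with a positive value. *Scn1a* (ENSMUSG00000064329, chromosome 2 from 66270778 to 66440840) was at 4.33, 4.55 and 3.81 FPKM in wildtype and 4.85, 3.93 and 5.84 FPKM in *Pou4f3(Δ/+)*. Its log2 fold change was 0.22 (standard error 0.14, edgeR adjusted p = 0.697). It moved with single libraries, to 0.35 without mutant replicate 2 (edgeR unadjusted p = 0.0222), 0.14 without wildtype replicate 5 and 0.094 without mutant replicate 3.

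The 10 genes varied over the single samples in a partly shared way. *Pou4f3(Δ/+)* replicate 2 was the lowest of the 6 samples for 6 of the 10 genes in log2 CPM, and *Pou4f3(Δ/+)* replicate 1 for 2 (*Prph* and *Uchl1*). *Pou4f3(Δ/+)* replicate 3 was the highest sample for 4 of them, *Nefl*, *Nefm*, *Tubb3* and *Scn1a*. Over all genes tested, 22.9% were lowest in replicate 2, 16.7% were lowest in replicate 1 and 15.6% were highest in replicate 3. The mean log2 CPM of the 10 genes was 6.09, 6.06 and 6.12 in wildtype and 5.87, 5.72 and 6.23 in *Pou4f3(Δ/+)*. The 3 wildtype samples thus lay within a narrow band, 2 mutant samples lay below it and 1 above it. The SD of log2 CPM was larger in *Pou4f3(Δ/+)* than in wildtype for 9 of the 10 genes, with medians of 0.28 and 0.13. Among all genes the mutant SD was the larger for 58.6%, with medians of 0.16 and 0.13. These comparisons are descriptions of 3 samples per group, and no test was made of them.

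**Figure D3:**
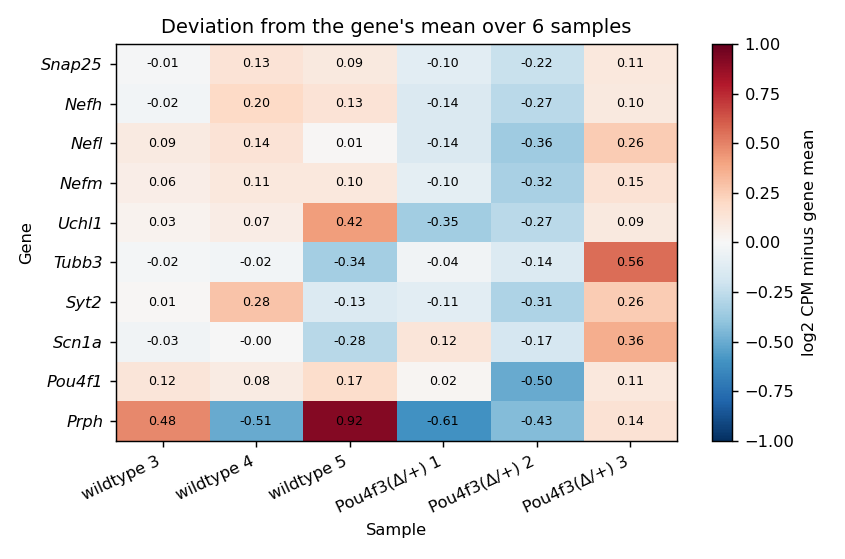
Deviation of each neuron gene from its own mean in each sample. Rows are genes, columns are samples, and color and numbers give log2 CPM minus the mean of the gene over the 6 samples. The column of *Pou4f3(Δ/+)* replicate 2 is below 0 for all 10 genes and that of replicate 3 is above 0 for all 10.

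The values depended on which mutant samples entered the comparison. In log2 CPM, *Pou4f3(Δ/+)* replicate 3 was the highest mutant sample for each of the 10 genes. Leaving it out therefore lowers the mutant mean of every member by construction, and the counts without it are no test of the members. Without *Pou4f3(Δ/+)* replicate 3, edgeR called 0 of the 10 genes and 1.10% of all genes, and 5 of the 10 had an unadjusted p under 0.05, where 17.4% of all genes did. These 5 were *Uchl1* (log2 fold change -0.49), *Nefl* (-0.32), *Nefm* (-0.29), *Nefh* (-0.30) and *Snap25* (-0.23), and their smallest adjusted p was 0.123 (*Uchl1*, edgeR). The other 5 were at -1.08 (*Prph*), -0.34 (*Pou4f1*), -0.26 (*Syt2*), 0.042 (*Tubb3*) and 0.094 (*Scn1a*), and the median over the 10 genes was then -0.30. Without *Pou4f3(Δ/+)* replicates 1 and 2, where the lone mutant sample is assumed to vary like the wildtype samples, 4 of the 10 log2 fold changes were below 0 and the median was 0.045. *Tubb3* then had the smallest p of the 10, with a log2 fold change of 0.68 (edgeR adjusted p = 0.646), and *Scn1a* was at 0.47. The 4 that stayed below 0 were closer to it than with all samples, at -0.31 (*Prph*), -0.091 (*Uchl1*), -0.019 (*Pou4f1*) and -0.0089 (*Nefh*). *Nefl* (0.18), *Nefm* (0.057), *Snap25* (0.033) and *Syt2* (0.20) were above 0.

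Ratios within a sample do not depend on depth, and they showed which members kept step with each other. *Nefm* was at 0.986 ± 0.0479 of the *Nefl* level in wildtype and 0.972 ± 0.0563 in *Pou4f3(Δ/+)* (FPKM ratio, SD, n = 3 each). *Nefh* was at 1.19 ± 0.101 and 1.15 ± 0.1004 of it, so the proportions of the 3 neurofilament subunits differed by less than the spread between replicates. *Snap25* was at 2.36 ± 0.148 and 2.40 ± 0.237 times *Nefl*. The ratio of *Syt2* to *Snap25* was 0.0903 ± 0.0156 and 0.0969 ± 0.00759, and those of *Uchl1*, *Pou4f1* and *Prph* to *Nefl* also overlapped between genotypes. A pair of members behaved otherwise. *Tubb3* was at 0.290, 0.280 and 0.245 of *Nefl* in wildtype and at 0.338, 0.365 and 0.386 in *Pou4f3(Δ/+)*. *Scn1a* was at 0.0393, 0.0395 and 0.0366 of *Nefl* in wildtype and at 0.0516, 0.0492 and 0.0464 in *Pou4f3(Δ/+)*. For both, all 3 mutant samples stood above all 3 wildtype samples. Of the 8 members set against *Nefl*, these 2 were above without overlap and 0 were below, where 3.79% of all genes were above and 1.74% below. With the most abundant transcript of each gene in place of the sum, the *Scn1a* ratio was 0.0290, 0.0101 and 0.0179 in wildtype and 0.0327, 0.0173 and 0.0332 in *Pou4f3(Δ/+)*, which overlap, while the *Tubb3* ratio rests on 1 transcript and was the same. These ratios are descriptions, with no test.

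**Figure D4:**
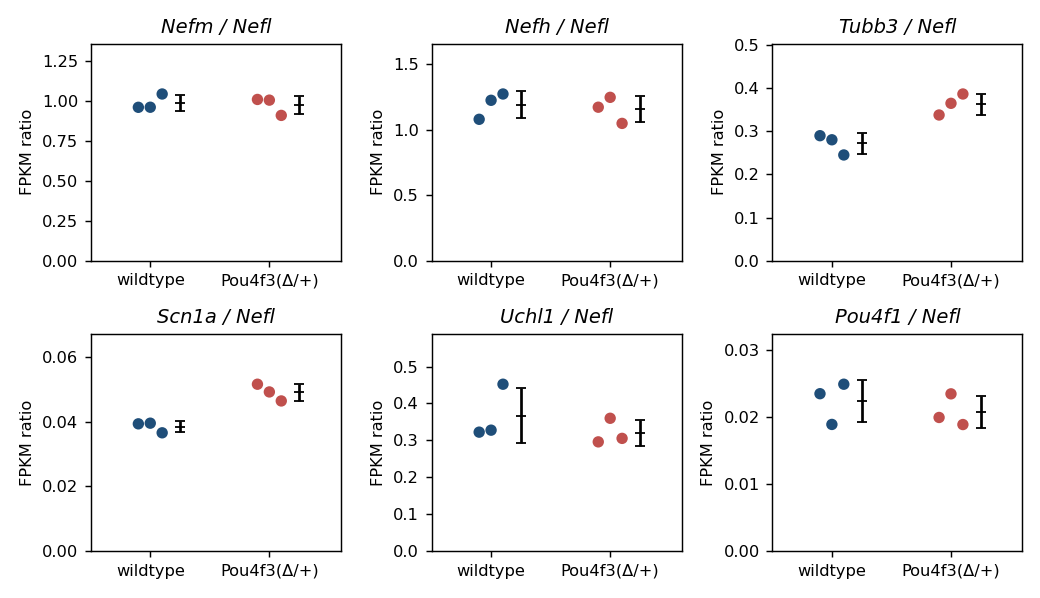
Level of 6 neuron genes relative to *Nefl* in the same sample. Vertical axes give the ratio of FPKM values and start at 0, points are samples (wildtype blue, *Pou4f3(Δ/+)* red), and bars beside them are the mean and SD of 3 samples. The groups do not overlap for *Tubb3* (0.272 and 0.363 on average) and *Scn1a* (0.0385 and 0.0491, gene sums) and overlap for the other 4.

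The 10 symbols covered 29 transcripts, and 15 passed the filter on low counts. Among the 15, edgeR called 0 between the genotypes (0% of all 38347 transcripts tested), DESeq2 called 0 (0.339% of all), and edgeR gave 0 an unadjusted p under 0.05 (4.14% of all). For *Nefh*, *Nefl*, *Nefm*, *Tubb3* and *Snap25*, a single protein-coding transcript held at least 99.7% of the FPKM in every sample. *Snap25* is known for a pair of alternative coding exons of equal length, only 1 of which enters each mRNA, and in the brain the downstream exon takes over after birth. Their sequences are shown because the listed transcripts differ in this choice, and capitals mark the 31 of 118 positions at which they differ (73.7% identity). The upstream exon lies at chr2:136769743-136769860 and the downstream exon at chr2:136770057-136770174, both on the plus strand of GRCm38.
Upstream exon (ENSMUST00000110098): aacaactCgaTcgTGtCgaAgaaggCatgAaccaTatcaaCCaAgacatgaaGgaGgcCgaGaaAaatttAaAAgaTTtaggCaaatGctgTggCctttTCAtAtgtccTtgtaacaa
Downstream exon (ENSMUST00000028727): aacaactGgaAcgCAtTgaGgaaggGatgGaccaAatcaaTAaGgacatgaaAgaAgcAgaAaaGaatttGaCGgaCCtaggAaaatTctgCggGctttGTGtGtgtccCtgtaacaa

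The transcript with the downstream exon held 99.8% of the *Snap25* level over the 6 samples. It was at 243, 273 and 261 FPKM in wildtype and 229, 208 and 269 FPKM in *Pou4f3(Δ/+)*. The transcript with the upstream exon was listed at 0 in the 3 wildtype samples and at 0.25, 0 and 0.52 FPKM in *Pou4f3(Δ/+)* replicates 1, 2 and 3, from at most 7.71 counts. With so few counts it was not tested.

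*Scn1a* had 8 listed transcripts, of which 3 protein-coding ones each held over 10% of its level. ENSMUST00000112366 held 26.3%, 28.4% and 8.66% of the *Scn1a* FPKM in wildtype and 36.7%, 44.0% and 20.5% in *Pou4f3(Δ/+)*. ENSMUST00000112371 held 73.7%, 25.5% and 48.8% in wildtype and 63.3%, 35.1% and 71.4% in *Pou4f3(Δ/+)*. ENSMUST00000077489 went from 0% to 45.1% among the wildtype samples alone. The shares varied about as widely within a genotype as between genotypes, and the estimates of the 3 transcripts rest on dividing reads that they share.

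For the other members the listed transcripts bear on the unit of the values. *Uchl1* had 96.5% of its FPKM on ENSMUST00000176015, annotated as a retained intron (980 bases), while the protein-coding ENSMUST00000031131 was listed at 3.29 FPKM in wildtype replicate 3, at 0.49 FPKM in *Pou4f3(Δ/+)* replicate 2 and at 0 in the other 4 samples. The first of these does not overlap the antisense gene *Uchl1os* in its exons, whereas the second does. For *Syt2*, ENSMUST00000121990 held 63.9% of the FPKM with 1240 to 1795 counts a sample. The short ENSMUST00000187725 (383 bases, from an upstream start) held 35.2% with 34.9 to 62.7 counts. *Pou4f1* had 57.0% of its FPKM on a processed transcript of 799 bases, but most of its counts (40.1 to 82.4 a sample) on the protein-coding ENSMUST00000053016. FPKM weights such short transcripts heavily, and the tests above used the counts.

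Genes that work alongside the members were taken from 4 lists, to be read against the 7.64% of all genes with an unadjusted p under 0.05 and the 50.6% with a log2 fold change below 0. In the list of axon cytoskeleton and transport, 0 of 12 tested genes passed in edgeR and 0 in DESeq2, 0 had an unadjusted p under 0.05, and 11 had a log2 fold change below 0 (median -0.14). *Sptbn4*, the beta spectrin of axon initial segments and nodes, was at 5.87, 5.29 and 5.31 FPKM in wildtype and 4.62, 3.99 and 5.29 FPKM in *Pou4f3(Δ/+)* (log2 fold change -0.27, edgeR adjusted p = 0.643). The microtubule protein gene *Map2* (-0.28) and *Ank3*, the ankyrin of the initial segment (-0.17), had the next smallest p. In the list of transmitter release machinery, 0 of 14 tested genes passed by either tool, 2 had an unadjusted p under 0.05 in edgeR, both lower, and 12 were below 0 (median -0.17). *Rims1* was listed at 0 in all 6 samples and was not tested.

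The release genes included the smallest p of the 4 lists. *Syn1*, synapsin of the vesicle surface, was at 15.02, 16.9 and 18.2 FPKM in wildtype and 11.95, 10.5 and 14.4 FPKM in *Pou4f3(Δ/+)*, so all 3 mutant samples were below all 3 wildtype samples. Its log2 fold change was -0.45 (standard error 0.12, unadjusted p = 0.00551, adjusted p = 0.643, edgeR). *Cplx1*, complexin of the fusion complex, was at 128, 138 and 144 FPKM in wildtype and 103, 89.7 and 130 FPKM in *Pou4f3(Δ/+)*, with a log2 fold change of -0.35 (edgeR adjusted p = 0.643). *Slc17a7*, a vesicular glutamate transporter, had a log2 fold change of -0.19 and overlapping groups. For *Cplx1*, mutant replicate 3 was just above the lowest wildtype sample in FPKM and just below it in CPM (280.5 against 281.0), so its separation of the groups depends on the unit.

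Among 13 neuronal ion channel genes, 0 passed by either tool, 1 had an unadjusted p under 0.05 in edgeR and 10 were below 0 (median -0.20). *Scn2a*, another sodium channel subunit, had a log2 fold change of -0.49 and the hyperpolarization-activated *Hcn2* had -0.26, both with overlapping groups.

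Of 17 tested genes of neuron subtypes and identity, 0 passed by either tool, 2 had an unadjusted p under 0.05 in edgeR and 14 were below 0 (median -0.13). *Eno2*, the neuronal enolase, was at 57.8, 55.5 and 60.1 FPKM in wildtype and 45.3, 38.8 and 54.1 FPKM in *Pou4f3(Δ/+)* (log2 fold change -0.31, edgeR adjusted p = 0.643). *Ntng1*, a netrin-related gene, had a log2 fold change of -0.43 (edgeR adjusted p = 0.643), and -0.67 without mutant replicate 3 (edgeR adjusted p = 0.0441). *Th*, which in the mouse cochlea marks type II neurons as *Prph* does, had 25, 19 and 27 counts in wildtype and 12, 9 and 19 counts in *Pou4f3(Δ/+)*. Its log2 fold change was -0.78 with a 95% interval from -1.65 to 0.085 (edgeR adjusted p = 0.650). Both type II markers therefore rested on at most 29 counts a sample, and neither passed.

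The lists followed the samples as the members did. Each of the 4 lists had its lowest mean log2 CPM in *Pou4f3(Δ/+)* replicate 2 and its second lowest in replicate 1. Without mutant replicate 3 the median log2 fold changes were -0.27 (axon cytoskeleton), -0.29 (release machinery), -0.34 (ion channels) and -0.28 (subtype and identity). Without mutant replicates 1 and 2 they were 0.11, 0.025, 0.11 and -0.0069. For ion channels, as an example, the means were 5.17, 5.38 and 5.22 in wildtype and 5.04, 4.84 and 5.40 in *Pou4f3(Δ/+)*. By the rule used to find genes with a like pattern, the closest to the mean of the 10 members over the 6 samples were *Pex3*, *Fbxo10*, *Trim32*, *Cnmd* and *Nhsl2*, with root-mean-square differences of 0.023 to 0.038 in log2 CPM among 7976 candidates.

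Markers of other cells of the cochlea were read beside the members. The summed level of 8 Schwann cell and myelin markers was 984, 1141 and 984 FPKM in wildtype and 833, 821 and 1134 FPKM in *Pou4f3(Δ/+)*, which is the sample pattern of the neuron genes. Of the 8, 6 had a log2 fold change below 0 (median -0.076), 0 passed in edgeR and 0 in DESeq2, and 1 had an unadjusted p under 0.05. *Sox10*, a transcription factor of these glia, had a log2 fold change of -0.10, and *Ncmap*, a myelin protein gene, had 0.25, both with overlapping groups. Markers of central glia, the cells around the central part of the auditory nerve, summed to 56.8 to 105 FPKM in wildtype and 79.2 to 106 FPKM in *Pou4f3(Δ/+)*. Of their 6 tested genes 0 passed by either tool and 2 had an unadjusted p under 0.05, *Slc1a2* (-0.28) and *Aqp4* (-0.48, and -0.77 without mutant replicate 3, edgeR adjusted p = 0.0247). *Opalin*, a defining marker of oligodendrocytes, was listed at 0 in all 6 samples, and *Mobp*, another, was at 20.1 to 48.6 FPKM. The 9 hair cell markers summed to 78.6, 83.5 and 88.9 FPKM in wildtype and 71.0, 78.5 and 74.0 FPKM in *Pou4f3(Δ/+)*, with a median log2 fold change of 0.059, 0 passing by either tool and 0 at an unadjusted p under 0.05.

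The B cell markers ran the other way over the samples. All 9 had a log2 fold change above 0 (median 0.84), 8 with an unadjusted p under 0.05 in edgeR. EdgeR called 0 of them at an adjusted p of 0.05 and DESeq2 called 4 (among them *Cd79b*, *Pax5* and *Vpreb3*). Their summed level was highest in *Pou4f3(Δ/+)* replicate 2 and next highest in replicate 1, the samples in which the neuron lists were lowest. Bone markers had a median log2 fold change of -0.34, with 3 of 6 at an unadjusted p under 0.05, 0 called by edgeR and 1 (*Sp7*) by DESeq2, and they summed to 683 to 987 FPKM in wildtype and 576 to 744 FPKM in *Pou4f3(Δ/+)*. Neutrophil markers had a median of -0.019, with 0 of 6 called by either tool and 0 at an unadjusted p under 0.05, and summed to 12807 to 14952 FPKM in wildtype and 13222 to 15716 FPKM in *Pou4f3(Δ/+)*. Of 5 skeletal muscle markers, 1 had enough counts to be tested (*Mylpf*, edgeR adjusted p = 0.759). The part of Schwann cell, glial, B cell and bone RNA in the values of the neuron genes was not tested.

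**Figure D5:**
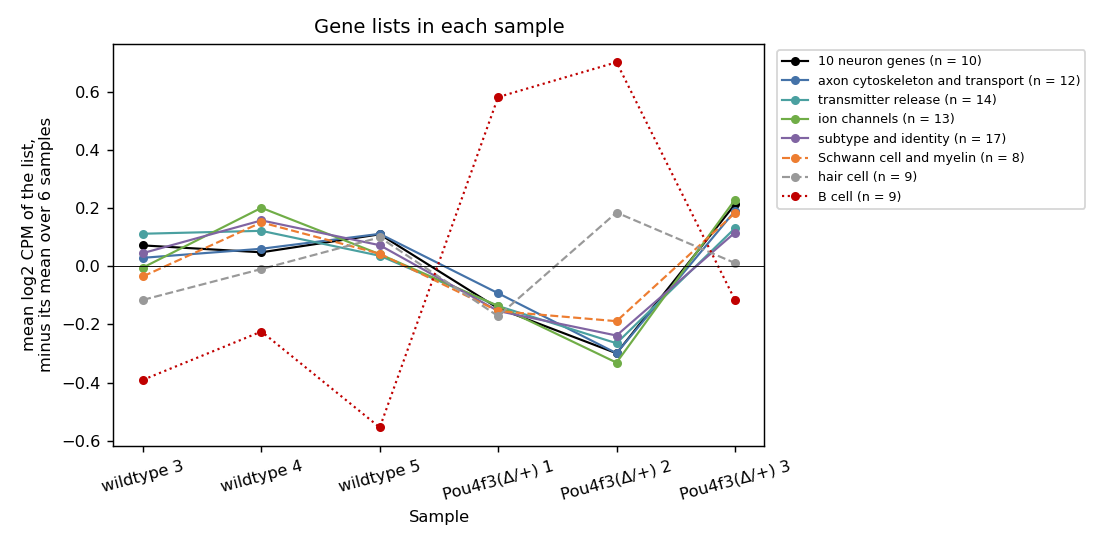
Mean level of gene lists in each sample. The vertical axis is the mean log2 CPM of the tested genes of a list minus its mean over the 6 samples, the horizontal axis gives the samples, and n is the number of tested genes. The 10 neuron genes, the 4 neuronal lists and the Schwann cell and myelin markers are lowest in *Pou4f3(Δ/+)* replicates 1 and 2, where the B cell markers (4.64, 4.81 and 4.48 in wildtype and 5.61, 5.73 and 4.92 in *Pou4f3(Δ/+)* before centering) are highest.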

How the data were processed

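Bulk RNA-seq of wildtype and *Pou4f3(Δ/+)* cochleae was analysed (n = 3 samples each). The authors deposited, per transcript and sample, expected counts (estimated fragments, not whole and not normalized) and FPKM values (per kilobase of transcript and relative to the counted fragments of the sample). Total RNA was prepared with a poly(A) selection or an rRNA removal kit and sequenced with paired-end reads. The submitters' processing notes name DESeq2 and the genome build mm8, whereas 99.5% of the listed transcripts were found in GENCODE M21 (GRCm38), which gave all coordinates and sequences here. The aligner and the counting program are not given in the sources used here. The deposited annotation columns of pathways and gene ontology were not used.

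Counts and FPKM were summed per gene symbol. Counts were rounded and tested with edgeR 4.0.16 in R 4.3.3 (filterByExpr with minimum count 10 and minimum total 15, TMM, quasi-likelihood test over the 6 samples without covariates, Benjamini-Hochberg adjustment over all 17136 genes or 38347 transcripts). Standard errors are the log2 fold change over the square root of F. Log2 CPM used a prior count of 2. Ratios and figures were made with Python 3.11.15, pandas 2.3.3 and matplotlib 3.10.9. The edgeR test was tested on simulated data with 200 changed features. The alternatives were DESeq2 1.42.0, DESeq2 size factors in edgeR, no filter, limma-trend (limma 3.58.1) on log2(FPKM + 0.5), with 0.1 or 1 in place of 0.5, an adjusted p threshold of 0.1, the most abundant transcript in place of the sum, and samples left out.

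The members and lists were chosen with earlier results of these data known. The genes named are the 10 members, their transcripts with at least 10% of the gene's FPKM, and per list the genes called or otherwise the 3 with the smallest p. Named for likeness are the 5 genes with the smallest root-mean-square difference from the members' mean centred log2 CPM, among genes with at least its SD. Transcripts under 10% (of *Snap25*, *Nefm* and *Uchl1*), *Dbh*, *Rims1*, *Opalin* and the B cell markers called by DESeq2 alone were named after their values were seen. Some items that these rules select are not reported here.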

Additional observations from a re-analysis of the deposited data

How the results depend on the processing

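No member gene was called under any of the 15 alternatives run, and no member transcript under any of its 8. The log2 fold changes of *Pou4f1*, *Nefh*, *Prph*, *Tubb3*, *Uchl1* and *Scn1a* kept their sign in all 14 alternatives, but came as close to 0 as -0.019, -0.0089, -0.24, 0.042, -0.091 and 0.094, respectively. The *Prph* value is on another scale than the rest, log2(FPKM + 1), where the added 1 exceeds the mean level of the gene (0.517 FPKM). Among the fits to counts, *Prph* came as close to 0 as -0.31. Without both *Pou4f3(Δ/+)* replicates 1 and 2, the log2 fold changes of *Nefl* (0.18), *Nefm* (0.057), *Snap25* (0.033) and *Syt2* (0.20) changed sign. Leaving out 1 sample at a time gave -0.32 to -0.012 for *Nefl*, -0.29 to -0.063 for *Nefm*, -0.23 to -0.070 for *Snap25* and -0.34 to -0.064 for *Pou4f1*. In each of these ranges the first value is without mutant replicate 3 and the second without mutant replicate 2. For *Syt2*, leaving out 1 sample at a time gave -0.26 to 0.030, above 0 without wildtype replicate 4 (0.030) or *Pou4f3(Δ/+)* replicate 2 (0.023). The cause was not tested. Among genes of all lists, edgeR called 0, where it called 0% of all genes tested. DESeq2 called 5 (4 B cell markers and *Sp7*), where it called 0.373% of all genes. Leaving out 1 sample at a time gave 0 to 9 in edgeR. The 9 were called without *Pou4f3(Δ/+)* replicate 3, where 1.10% of all genes were called, and included 6 B cell markers, *Aqp4* and *Ntng1*. With the most abundant transcripts in place of gene sums, the *Scn1a* to *Nefl* ratio averaged 0.0190 in wildtype and 0.0277 in *Pou4f3(Δ/+)* with overlapping groups, that of *Pou4f1* to *Nefl* 0.0130 and 0.0118, and that of *Syt2* to *Snap25* 0.0592 and 0.0603. No paired analysis was possible because the groups share only replicate number 3. Depth limits *Prph*, *Th* and the minor transcripts, which rest on few counts.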
